A study of Rattus norvegicus with 80 samples.

Results

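Mammary epithelial cells (MECs) of the PS line, one of 3 Nf1-mutated rat lines in the series, were compared with MECs of wildtype rats. The samples were chosen by their labels alone, as the 3 libraries labelled PS MECs and the 3 labelled wildtype MECs, which makes 6 of the 80 libraries of the series. The other libraries come from the lines IF and IFPS, from fibroblasts, adipocytes and whole mammary pads of the same 4 kinds of rats, and from tumors of the mutated lines. The labels name the lines without spelling out the alleles. They give no treatment, age, promoter or clone for these 6 libraries. The MECs were grown in culture until near confluence, and their RNA was taken on a column. Nothing in the labels says whether the 3 libraries of a group came from separate animals or cultures. The p-values thus rest only on the spread between libraries of the same group, which may be technical. For the comparison of PS and wildtype MECs that spread was taken over the MECs of all 4 kinds of rats, IF and IFPS included. Per the labels, poly(A) mRNA libraries were read from both ends. Because the RNA is from whole cultures, fewer cells of a type and less RNA per cell cannot be told apart.

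Mammary epithelial cells line the ducts and lobules of the gland as an inner luminal and an outer basal layer. Nf1 encodes neurofibromin, a protein that speeds the return of active Ras to its inactive form. With less of it, Ras and the ERK kinase cascade below it can signal for longer, and rats and people with NF1 mutations are prone to tumors, the mammary gland among the sites. The deposited table gives genes only as Ensembl identifiers, and 0 of the 32883 identifiers could be matched to a symbol with the reference used here. Nf1 itself, epithelial marker genes, Ras and ERK genes and the sequences of the genes below are therefore not analysed here. The 4 genes named are the 2 with the smallest p in each direction.

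PS MEC libraries held 27063591 to 30944799 counts and wildtype MEC libraries held 29673772 to 31632249 counts, over 18578 to 18665 and 18452 to 18583 detected genes. The 10 most abundant genes took 7.08 to 7.56% of the counts in PS and 7.9 to 8.65% in wildtype MECs. No 2 libraries of a group were alike within counting noise. Wildtype replicate 2 stood apart from the other wildtype libraries. On the first principal component of the 12 MEC libraries, which held 21.9% of the variance, it lay at 0.2, while wildtype replicates 1 and 3 lay at 27.6 and 27.5 and the PS libraries at -6.9, -18.6 and -7.7. The root mean square log2 distance was 0.36 to 0.393 between PS libraries, 0.408 to 0.449 between wildtype libraries and 0.444 to 0.531 between PS and wildtype libraries. The ranges between groups and within wildtype thus overlapped slightly.

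With no marker genes to hand, the cell type label was checked on genes taken from the data. In IFPS libraries, which are not among the 6 compared, 616 genes were over 8-fold higher in MECs than in fibroblasts and in adipocytes at an adjusted p under 0.05. These MEC-enriched genes took 2.42, 2.96 and 2.27% of the counts in wildtype MECs and 2.68, 3.10 and 2.89% in PS MECs, against 0.0603 to 0.262% in wildtype fibroblasts. Likewise, 140 genes enriched in IFPS fibroblasts over MECs and adipocytes took 0.351, 0.364 and 0.400% of the counts in wildtype MECs and 0.301, 0.362 and 0.332% in PS MECs, against 3.36 to 4.17% in wildtype fibroblasts. Both groups of cultures were set apart from fibroblasts by these genes. On the MEC-enriched genes the PS and wildtype MEC ranges overlapped only through wildtype replicate 2, at 2.96%. On the fibroblast-enriched genes they overlapped between 0.351 and 0.362%. Gene by gene, 73% of the MEC-enriched and 25.8% of the fibroblast-enriched genes tested had a log2 fold change above 0, PS over wildtype.

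A small share of the genes tested passed the threshold between PS and wildtype MECs, mostly with differences of less than 1.5-fold. Of 14688 genes tested with edgeR's quasi-likelihood test, 347 (2.36%) passed an adjusted p of 0.05. In PS MECs 207 genes (1.41%) were higher and 140 (0.953%) were lower. At an unadjusted p of 0.05, 2785 genes (19%) passed. The PS and wildtype libraries did not overlap in 206 of the 207 higher and 140 of the 140 lower genes. These genes were picked by a test on the same libraries, so that separation follows largely from the choice. Over all genes tested 21.8% were without overlap, 10.8% on the higher side and 11.1% on the lower side.

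The median log2 fold change was 0.55 among the higher genes, with quartiles of 0.38 and 1, and -0.48 among the lower genes, while all genes tested had a median of 0. Of the 207 higher genes 112 changed by under 1.5-fold, 52 by over 2-fold, 17 by over 4-fold and 10 by over 8-fold. Of the 140 lower genes 88 changed by under 1.5-fold, 18 by over 2-fold, 3 by over 4-fold and 1 by over 8-fold. Large differences were thus mostly increases in PS MECs. The higher genes had a median level of 17.5 CPM (counts of a gene scaled to the size of its library) in wildtype and 26.8 in PS MECs, and the lower genes 47.5 and 35.4 CPM.

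**Figure D1:**
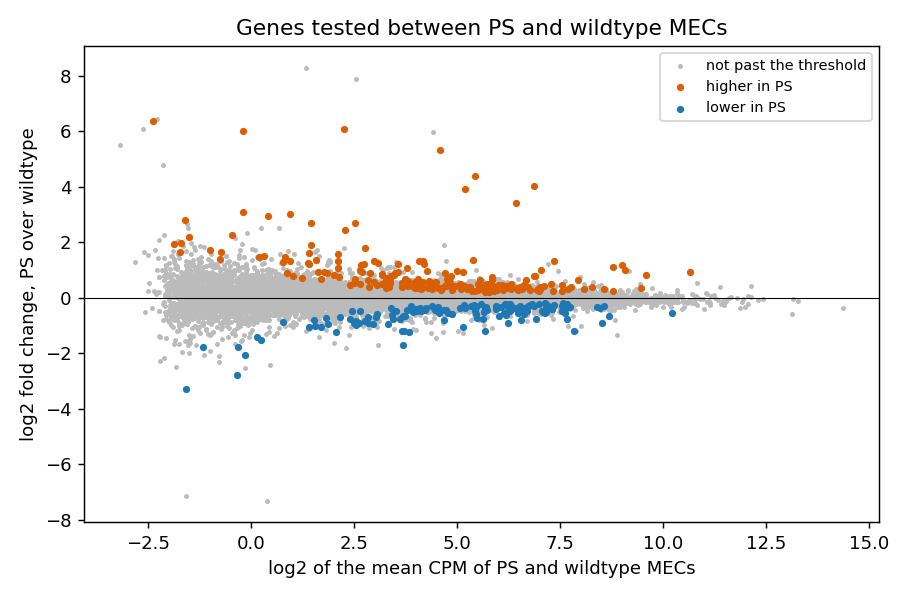
Each point is 1 of the 14688 genes tested, with the log2 of its mean CPM over PS and wildtype MECs on the x axis and its log2 fold change, PS over wildtype, on the y axis. Orange marks the 207 genes higher and blue the 140 lower in PS MECs at an adjusted p under 0.05, and most of the points far from 0 that passed lie above it.

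The size of the differences that passed went with the level of the gene. The genes were split into 4 equal classes by abundance. In the lowest class, from 0.268 to 4.44 CPM, 38 genes were higher and 14 lower in PS MECs, the median standard error of the log2 fold change was 0.312, and the called genes had a median absolute log2 fold change of 1.47. In the highest class, from 62.3 to 20500 CPM, 49 were higher and 56 lower, the median standard error was 0.0658, and the called genes differed by a median of 0.39. The standard error holds both counting error and the spread between libraries, which were not separated.

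Which genes passed depended on single libraries. When 1 library was left out, between 72 and 815 genes passed. Leaving out wildtype replicate 2, the library that stood apart, raised the count to 815, and 314 of the 347 genes were among them. Leaving out any other of the 6 lowered it, to 180 without PS replicate 1, 135 without PS replicate 2, 78 without PS replicate 3, 72 without wildtype replicate 1 and 101 without wildtype replicate 3. In all 6 of these fits 48 of the 347 genes passed, 31 of them higher and 17 lower, and their median absolute change was 0.82 on the log2 scale. With only the PS and wildtype libraries in the fit, 36 genes passed, 23 higher and 13 lower, of which 33 were among the 347, and DESeq2 called 847, with 461 higher and 386 lower.

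**Figure D2:**
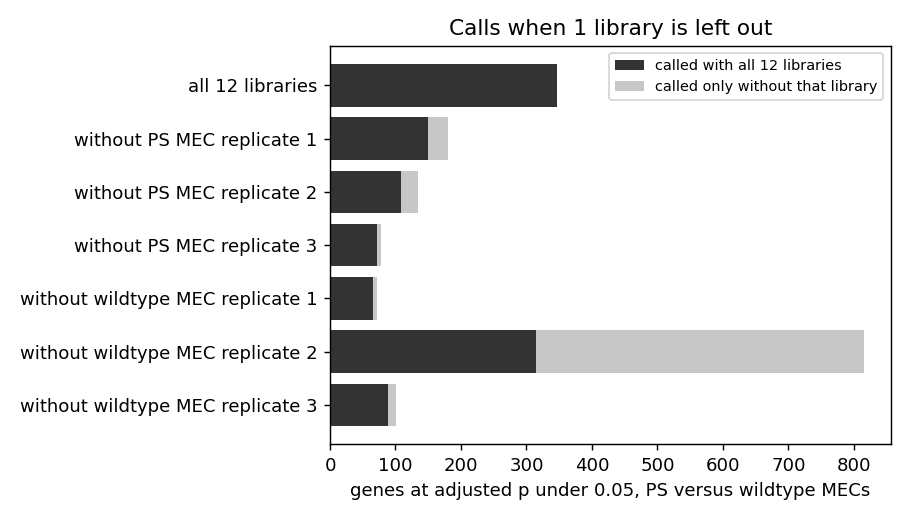
Bars give the number of genes at an adjusted p under 0.05 between PS and wildtype MECs with all 12 MEC libraries in the fit (top, 347 genes) and with 1 library left out. The dark part is the genes also among the 347, and the bar without wildtype replicate 2 is the one longer than 347, with 314 genes in its dark part.

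The gene with the smallest p, ENSRNOG00000012067, was about 10.6-fold higher in PS MECs. It measured 15.7, 12.4 and 16.5 CPM in wildtype MECs and 164, 139 and 170 CPM in PS MECs. All PS libraries lay far above all wildtype libraries (log2 fold change 3.41 ± 0.12, SE, n = 3 per group, adjusted p = 6.09e-08, edgeR). ENSRNOG00000015716 was higher by about 15.2-fold, from 4.45, 6.12 and 2.93 CPM in wildtype to 64.1, 60.4 and 79.8 CPM in PS MECs (log2 fold change 3.92 ± 0.25, SE, adjusted p = 2.92e-05, edgeR). Its groups did not overlap either.

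Among the lower genes, ENSRNOG00000003905 had the smallest p. It stood at 71.7, 65.2 and 78.6 CPM in wildtype and at 31.6, 32.5 and 28.9 CPM in PS MECs, or 0.432 of the wildtype level (log2 fold change -1.21 ± 0.08, SE, adjusted p = 3.79e-05, edgeR). ENSRNOG00000031890 stood at 136, 158 and 166 CPM in wildtype and at 93.7, 95.5 and 79.8 CPM in PS MECs, or 0.585 of the wildtype level (log2 fold change -0.77 ± 0.08, SE, adjusted p = 0.00214, edgeR). Each of the 3 PS libraries was below each wildtype library for both genes. All 4 genes stayed past the threshold in 10 of 10 alternative analyses of this comparison, with log2 fold changes of 3.29 to 3.49, 3.69 to 4.21, -1.28 to -1.14 and -0.85 to -0.7 in the order given here.

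**Figure D3:**
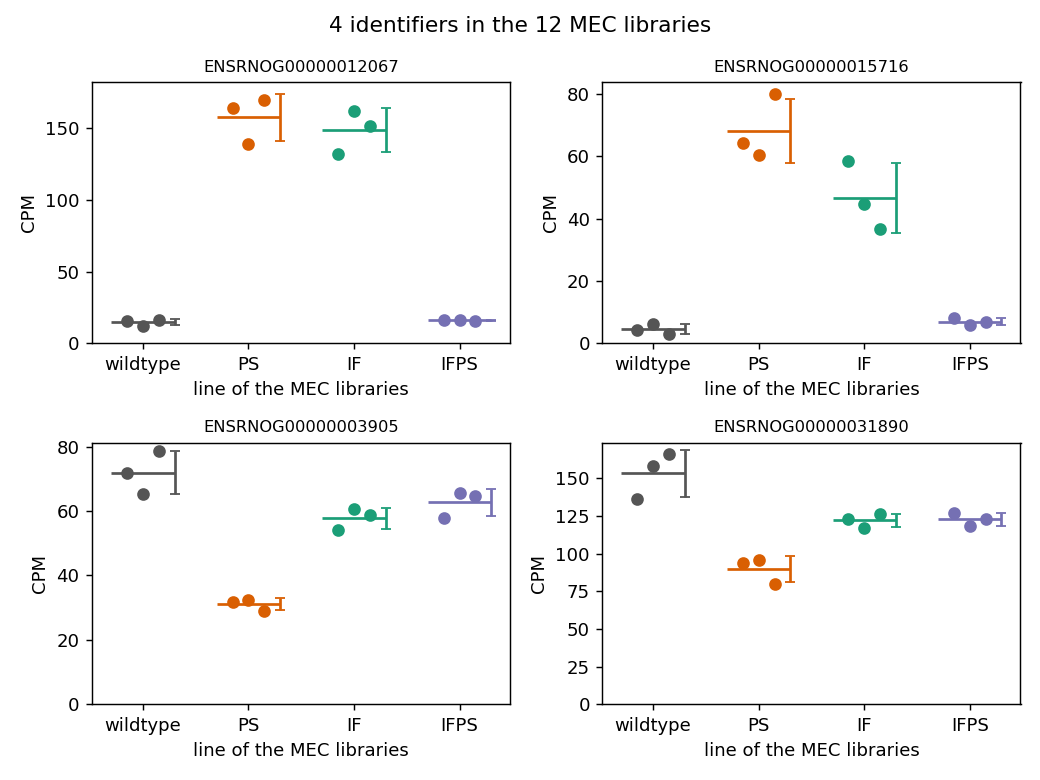
CPM of the 4 named genes in the 12 MEC libraries, 1 point per library in 4 lines of 3, with the mean as a horizontal line and the SD as a bar. For ENSRNOG00000012067 and ENSRNOG00000015716 the IF libraries sit near PS and the IFPS libraries near wildtype, while for ENSRNOG00000003905 all 3 PS libraries, at 28.9 to 32.5 CPM, lie below the other 9.

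Other genes among the smallest p-values, chosen for description after their values were seen and given here without identifiers, included very rare transcripts of wildtype MECs. The higher gene of rank 3 by p measured 0.408, 0.476 and 0.386 CPM in wildtype and 3.72, 3.27 and 3.34 CPM in PS MECs (log2 fold change 3.01 ± 0.25, SE, adjusted p = 0.000213, edgeR). It passed in 6 of 6 fits with a library left out, with a largest adjusted p of 0.00322. The higher gene of rank 4 by p measured 0.068, 0.238 and 0.0965 CPM in wildtype and 6.63, 6.62 and 14.8 CPM in PS MECs (adjusted p = 0.000863, edgeR). Its fold change is not given, since it rests on few wildtype counts.

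At the edge of detection, 1 of the higher genes had 0, 0 and 0 counts in the wildtype libraries and 13, 6 and 15 in PS MECs. Another had 2, 0 and 0 counts in wildtype and 2, 61 and 90 in PS MECs, where PS replicate 1 equalled a wildtype library in counts. A lower gene had 10, 16 and 29 counts in wildtype and 1, 2 and 2 in PS MECs. Their fitted fold changes depend on the prior count and are not given either.

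MECs of the other mutated lines were measured in the same fit, and all 3 comparisons with wildtype share the 3 wildtype libraries. IF MECs had 120 calls against wildtype (0.817% of genes tested, 0.477% higher and 0.34% lower) and IFPS MECs had 55 (0.374%, with 0.272% higher and 0.102% lower). Over the 207 genes higher in PS, the median log2 fold change was 0.55 in PS, 0.34 in IF and 0.30 in IFPS MECs. Over the 140 lower genes it was -0.48, -0.27 and -0.21, and over all genes tested 0, 0 and -0.01. The IF mean was above wildtype for 199 and the IFPS mean for 195 of the 207 genes, and below it for 131 and 129 of the 140. Because the wildtype libraries are common to the comparisons, these signs are not independent of the PS result.

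The mean log2 CPM of the 207 higher genes was 3.79, 3.87 and 3.75 in wildtype, 4.63, 4.67 and 4.64 in PS, 4.43, 4.37 and 4.40 in IF, and 4.34, 4.28 and 4.29 in IFPS MECs. For the 140 lower genes it was 5.26, 5.16 and 5.27 in wildtype, 4.64, 4.62 and 4.58 in PS, 4.87, 4.91 and 4.90 in IF, and 4.91, 4.96 and 5 in IFPS MECs. IF and IFPS libraries lay between wildtype and PS on both sets, which were chosen for the difference between wildtype and PS. All 3 PS libraries were above the other 9 MEC libraries for 53 of the 207 higher genes and below them for 62 of the 140 lower genes, against 171 and 214 of all 14688 genes tested.

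Tested directly, few genes separated PS MECs from the other mutated lines. Between PS and IF MECs 10 genes passed (0.0681% of genes tested), 6 higher (0.0408%) and 4 lower (0.0272%) in PS, with 1558 at an unadjusted p of 0.05. Between PS and IFPS MECs 10 genes passed (0.0681%), 7 higher (0.0477%) and 3 lower (0.0204%), with 1541 at an unadjusted p of 0.05. DESeq2 called 209 and 130 genes in these comparisons. Against IF, 5 genes passed without PS replicate 1, 3 without PS replicate 3 and 4 without IF replicate 2, and against IFPS 6 passed without IFPS replicate 1. The lists against IF, IFPS and wildtype share the same PS libraries and are not independent. The genes called against IF were all among the 347, as were 9 of the 10 called against IFPS. The exception measured 17.4 CPM on average in PS, 17 in wildtype, 13.6 in IF and 11.6 in IFPS MECs, with an adjusted p of 0.893 between PS and wildtype.

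The named genes showed different patterns across the lines. ENSRNOG00000012067 measured 132, 162 and 152 CPM in IF and 16.3, 16.3 and 15.7 CPM in IFPS MECs. PS therefore differed from IFPS (log2 difference 3.29 ± 0.12, SE, adjusted p = 9.42e-08, edgeR), while its difference from IF was 0.08 ± 0.11 (adjusted p = 0.86). ENSRNOG00000015716 measured 58.6, 44.6 and 36.7 CPM in IF and 8.31, 5.9 and 6.9 CPM in IFPS MECs. Its PS level differed from that in IFPS by 3.28 ± 0.24 (adjusted p = 0.000154) and from that in IF by 0.55 ± 0.21 (adjusted p = 0.381) on the log2 scale.

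ENSRNOG00000003905 was lower in PS MECs than in both other mutated lines, with 54.2, 60.5 and 58.7 CPM in IF and 57.7, 65.5 and 64.8 CPM in IFPS MECs. The log2 difference was -0.90 ± 0.08 from IF (adjusted p = 0.00148) and -1.01 ± 0.08 from IFPS (adjusted p = 0.000235). For ENSRNOG00000031890, at 123, 117 and 126 CPM in IF and 127, 118 and 123 CPM in IFPS MECs, neither difference passed (adjusted p = 0.0918 and 0.0888), although PS lay below every library of both lines. The unnamed higher gene of rank 3 by p was high in PS alone among the 4 lines. It measured 0.261, 0.446 and 0.255 CPM in IF and 0.231, 0.496 and 0.413 CPM in IFPS MECs, and differed from PS by 3.40 and 3.16 on the log2 scale (adjusted p = 0.000519 and 0.000235).

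The same contrast of lines in fibroblasts, the cells that make the connective tissue of the gland, gave 3016 calls of 13879 genes tested (21.7%), 10.6% higher and 11.2% lower in PS. These are separate libraries with the same title numbers as the MECs. The labels state no pairing, and it was only inferred from correlations between same-numbered libraries. Of the 207 genes higher in PS MECs 188 were tested in fibroblasts, where 30 (16%) were higher and 44 (23.4%) were lower in PS. Of the 140 genes lower in PS MECs 137 were tested, and 18 (13.1%) were higher and 29 (21.2%) were lower. In all, 59 genes moved the same way in both cell types, which is 17% of the MEC calls and 1.96% of the fibroblast calls. The other 62 genes called in both moved in opposite ways, 17.9% of the MEC calls and 2.06% of the fibroblast calls. Calls in fibroblasts were thus split between both directions for either set. Without wildtype MEC replicate 2, which gave the larger number of MEC calls, 127 genes moved the same way and 89 in opposite ways.

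A test of the difference itself, the PS effect in MECs minus that in fibroblasts, passed for 1705 of 15224 genes (11.2%, with 5.98% more positive and 5.22% more negative in MECs), and 26.6% passed at an unadjusted p of 0.05. The count fell to 996 without PS MEC replicate 3, 1116 without wildtype MEC replicate 1, 893 without PS fibroblast replicate 2 and 1055 without wildtype fibroblast replicate 3. These fits took same-numbered libraries of the cell types as independent. With a block for each title number in the fit, 2022 genes passed. Unblocked and with all libraries, the test passed for 110 of the 207 genes higher and 54 of the 140 lower in PS MECs. The MEC libraries that chose these genes enter that test, so the counts are a description. Passing both tests favours genes with opposite signs, so the signs are given over all MEC calls tested in fibroblasts. There 85 of the 188 genes higher in PS MECs (45.2%) and 54 of the 137 lower genes (39.4%) had a log2 fold change above 0, against 49.7% of all genes tested.

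**Figure D4:**
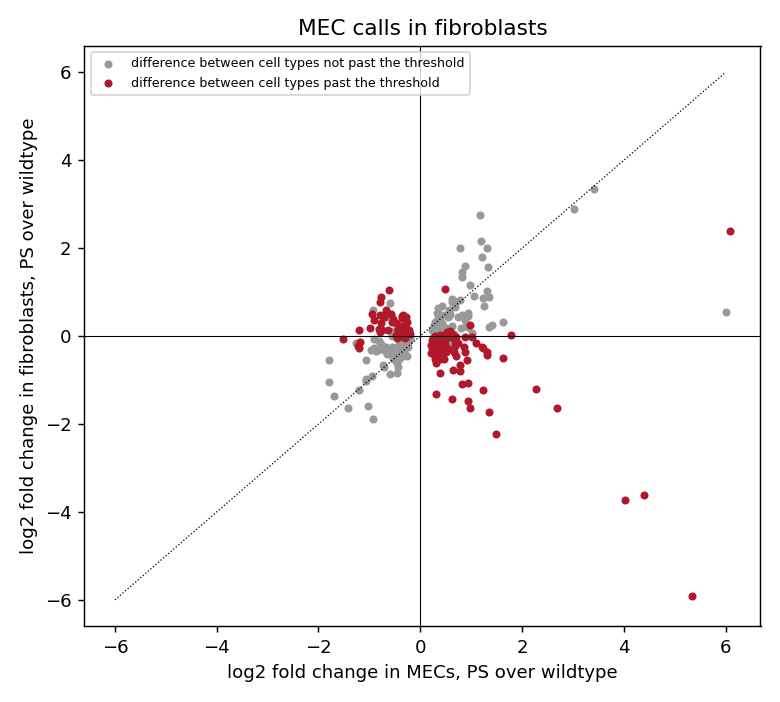
Each of the 325 points is a gene called between PS and wildtype MECs and tested in fibroblasts, with its log2 fold change in MECs on the x axis and in fibroblasts on the y axis. Red marks the 162 genes whose difference between the cell types passed an adjusted p of 0.05, the dotted line is equal change, and red points with large increases in MECs and decreases in fibroblasts lie at the lower right.

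The largest increases in PS MECs included genes that fell in PS fibroblasts. Of the 17 genes over 4-fold higher in PS MECs 9 were tested in fibroblasts, and there 3 were higher, 5 were lower and 1 did not pass. The 5 genes with opposite calls were picked out after their values were seen, and are given here without identifiers numbered 1 to 5 in the order of their fold change in MECs. In MECs gene 1 measured 1.43, 1.12 and 0.933 CPM in wildtype and 71.9, 58 and 10.8 CPM in PS (log2 fold change 5.33 ± 0.63, SE, adjusted p = 0.00328, edgeR). In fibroblasts it measured 43.5, 31.5 and 21.3 CPM in wildtype and 0.393, 0.697 and 0.5 CPM in PS (log2 fold change -5.90 ± 0.47, SE, adjusted p = 0.000119, edgeR). The PS MEC libraries at 71.9 and 58 CPM thus lay above all wildtype fibroblasts, and that at 10.8 CPM lay below them. PS fibroblasts lay below wildtype MECs, although levels of the 2 cell types were scaled in separate fits. The difference of the effects was 11.23 ± 0.86 on the log2 scale (adjusted p = 2.27e-07, edgeR).

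Gene 3 measured 16.5, 13.2 and 11 CPM in wildtype and 343, 277 and 43.5 CPM in PS MECs, against 150, 131 and 96.8 CPM in wildtype and 9.64, 11.8 and 7.2 CPM in PS fibroblasts. Its effect was 4.02 ± 0.60 in MECs and -3.72 ± 0.37 in fibroblasts. Genes 2, 4 and 5 had effects of 4.40, 2.70 and 2.27 in MECs and of -3.62, -1.63 and -1.21 in fibroblasts. Gene 5 was rare, at 0.34, 0.17 and 0.225 CPM in wildtype MECs and 0.242, 0.319 and 0.25 CPM in PS fibroblasts. Its effects in both cell types rest on few counts. In genes 1 to 4 PS MEC replicate 3 was the lowest PS library, and still above all 3 wildtype libraries.

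All 5 genes also passed in IF and in IFPS MECs against the same wildtype libraries, and gene 1 stood at 65.6, 48.8 and 62.8 CPM in IF and 92.6, 85.9 and 113 CPM in IFPS MECs. In fibroblasts of these lines gene 1 measured 26.1, 15.6 and 13.8 CPM in IF and 24, 11.5 and 25.1 CPM in IFPS fibroblasts. With each of the 6 MEC libraries left out in turn, genes 1, 3, 4 and 5 passed in 6 of 6 fits in MECs and gene 2 in 3 of 6. Gene 2 was lost without PS replicate 2, wildtype replicate 1 or wildtype replicate 3, with a largest adjusted p of 0.0798. With each of the 6 fibroblast libraries left out, genes 1 to 4 passed in 6 of 6 fits and gene 5 in 2 of 6. Gene 5 was lost without PS replicate 1 or 3 or wildtype replicate 2 or 3, with a largest adjusted p of 0.0653.

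**Figure D5:**
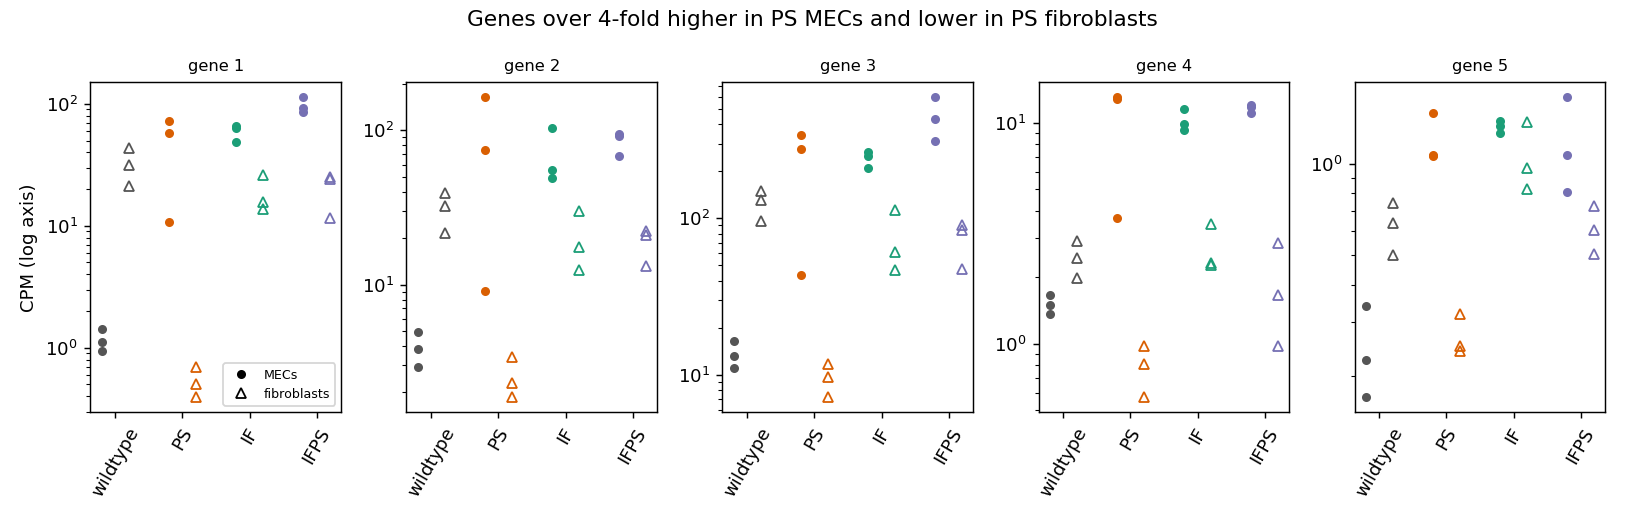
CPM on a log axis in MECs (filled circles) and fibroblasts (open triangles) of the 4 lines for the 5 genes over 4-fold higher in PS MECs and lower in PS fibroblasts, 1 point per library, with a separate axis for each gene. In each panel wildtype MECs are the lowest MEC group and PS fibroblasts the lowest fibroblast group.

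Among the named genes, ENSRNOG00000012067 and ENSRNOG00000003905 had PS effects in fibroblasts close to those in MECs. The first changed by 3.34 ± 0.23 on the log2 scale in fibroblasts (adjusted p = 4.04e-05, edgeR), 0.06 ± 0.26 less than in MECs (adjusted p of the difference 0.92). The second changed by -1.24 ± 0.07 (adjusted p = 6.29e-06), with a difference of 0.02 ± 0.11 from the MEC effect (adjusted p = 0.947). MECs and fibroblasts share title numbers, so these effects may not be independent of each other. ENSRNOG00000015716 had at most 2 counts in any fibroblast library and was not tested there. ENSRNOG00000031890 moved the other way in fibroblasts, with a mean of 262 CPM in wildtype and 486 CPM in PS (log2 fold change 0.89 ± 0.27, SE, adjusted p = 0.0389, edgeR). Its PS effect was 1.67 lower in MECs than in fibroblasts (log2 difference -1.67 ± 0.30, SE, adjusted p = 0.00232).

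In adipocytes, the fat-storing cells of the gland, 54 of 14304 genes (0.378%) differed between PS and wildtype. Of the genes higher in PS MECs 191 were tested in adipocytes, where 3 (1.57%) were higher and 1 (0.524%) was lower. Of the genes lower in PS MECs 135 were tested, with 0 higher and 4 (2.96%) lower. Over all genes tested in adipocytes 0.112% were higher and 0.266% lower. The difference between the effects in MECs and adipocytes passed for 161 of 15693 genes (1.03%). That count was 7 with a replicate block on the title number and 348 without wildtype adipocyte replicate 1. It was 72 to 103 without PS MEC replicate 2 or 3, wildtype MEC replicate 1 or 3, any 1 PS adipocyte library, or wildtype adipocyte replicate 2 or 3. ENSRNOG00000012067 rose from a mean of 0.75 CPM in wildtype to 115 CPM in PS adipocytes (log2 fold change 7.27 ± 0.26, SE, adjusted p = 2.51e-07, edgeR), a larger change than in MECs (log2 difference -3.87 ± 0.26, SE, adjusted p = 1.12e-07). ENSRNOG00000003905 fell by 1.24 on the log2 scale, from 42.9 to 18.2 CPM (adjusted p = 0.000405), 0.02 ± 0.12 away from its MEC effect.

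Whole mammary pads contain epithelium, stroma and fat together. Between PS and wildtype pads 1 of 16384 genes (0.0061%) passed, with 1679 (10.2%) at an unadjusted p of 0.05. That gene was ENSRNOG00000003905, at a mean of 53.9 ± 5.69 CPM in wildtype and 29.2 ± 2.48 CPM in PS pads (SD, n = 6 each, log2 fold change -0.88 ± 0.11, SE, adjusted p = 0.00502, edgeR). It was thus lower in PS than in wildtype in all 4 normal tissues, which share title numbers and may not be independent. Of the genes higher in PS MECs 140 of 203 (69%) had a fold change above 1 in pads, with a median log2 fold change of 0.09, and of the genes lower in PS MECs 31 of 137 (22.6%) did, with a median of -0.13. Over all genes tested in pads 49.9% did, with a median of 0.

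ENSRNOG00000012067 varied within the pads of a line. PS pads measured 268, 233, 216, 246, 17.5 and 628 CPM. Wildtype pads of title numbers 1 to 3 measured 11.5, 16.8 and 15.6 CPM, while those of title numbers 13 to 15 measured 271, 232 and 212 CPM. The wildtype pads thus fell at a low and a high level by title number, 1 PS pad lay at the low level, and the difference between the lines did not pass (log2 fold change 1.73 ± 0.73, SE, adjusted p = 0.442, edgeR). PS tumors also spread over both levels, at 5.94, 10.3, 10.9, 18.6, 172, 228, 263, 263 and 564 CPM, as did IFPS tumors, at 3.04, 10.9, 11.8, 18.4, 19.2, 22.2, 168, 247 and 273 CPM. The 5 IF tumors lay at 187 to 264 CPM. The level of this gene thus differed within the PS, IFPS and wildtype lines as well as between them, while the 3 libraries of each MEC group were alike. The wildtype MEC libraries carry title numbers 1 to 3 and the PS MEC libraries 10 to 12. ENSRNOG00000015716 did not pass in pads either (log2 fold change 1.55 ± 0.46, SE, adjusted p = 0.324), with wildtype pads at 45.1 to 432 CPM and PS pads at 97.8 to 500 CPM.

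Tumors of the PS line were set against PS pads, a comparison added for the genes called in MECs. Of 17227 genes tested 6709 (38.9%) differed, 18.1% higher and 20.8% lower in tumors. Of the 207 genes higher in PS MECs 74 (35.7%) were higher and 20 (9.66%) were lower in tumors. Of the 140 genes lower in PS MECs 138 were tested, and 12 (8.7%) were higher and 61 (44.2%) were lower. The tissues differed in their content of epithelial transcripts: the MEC-enriched genes took 3.8 to 5.92% of the counts in PS tumors and 1.61 to 3.05% in PS pads. The part of this in the tumor values was not tested.

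The cell-type genes taken from IFPS libraries were also followed through the PS comparison. Of 604 MEC-enriched genes tested 9 were higher and 3 were lower in PS MECs (1.99%, against 2.36% of all genes), with a median log2 fold change of 0.21 and 73% above 0. Of 93 fibroblast-enriched genes tested 1 was higher and 7 were lower (8.6%), with a median of -0.31 and 25.8% above 0. Without wildtype replicate 2 these medians were 0.36 and -0.39. The wildtype libraries differed among themselves on the same genes: replicate 2 had the highest share of counts from MEC-enriched genes in its group, 2.96% against 2.42 and 2.27%. Genes that in IFPS were over 8-fold higher in adipocytes than in MECs and fibroblasts had 11 higher and 2 lower of 378 tested (3.44%). Genes over 8-fold higher in whole pads than in each isolated cell type had 4 higher and 1 lower of 183 (2.73%). Over all genes tested 2.36% were called. These pad genes took 0.046, 0.0737 and 0.0471% of the counts in wildtype and 0.0706, 0.0688 and 0.0766% in PS MECs. The part of these shares in the 347 calls was not tested.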

How the data were processed

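RNA-seq of 80 rat libraries was deposited by the authors as 1 table of raw counts, whole numbers of reads per Ensembl gene identifier. Per the submitters' processing notes, Trim Galore, STAR 2.5.2b and the build Rnor_6.0 were used. The counting tool and its strand setting are not given in the sources used here, so genes with near-identical copies, overlapping or antisense genes are uncertain. Columns were matched to samples by title. Of 32883 identifiers 6365 had no count in any library, and the reference table of 47357 genes holds 0 Ensembl identifiers.

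The counts were tested with edgeR 4.0.16 in R 4.3.3 (TMM, filterByExpr, quasi-likelihood test, Benjamini-Hochberg adjustment over all genes tested, threshold 0.05). All 12 MEC libraries shared 1 fit. Fibroblasts, adipocytes and pads each had their own, and pads had the set of title numbers as a covariate. Tumors were fitted together with pads of the mutated lines, without that covariate. Effects were compared between tissues by an interaction term. CPM are scaled within a tissue and not by gene length. The scripts were tested on simulated data. Alternatives were RLE size factors, no low-count filter, DESeq2 1.42.0, only the groups compared, leaving out each library and a replicate block.

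The rule named Nf1, genes with symbols and members of gene lists. With no symbols, the 2 genes with the smallest p per direction were named, as the rule provided. The members and lists were chosen with earlier results of these data known. PS and wildtype MECs share 0 title numbers. Between MECs and fibroblasts, deviations from the group means correlated at 0.136 to 0.307 (13465 genes) for same-numbered libraries, over 0.1 in 12 of 12 pairs, so the numbers were taken to pair them. The tumor comparison and the cell-type sets were added after seeing the data.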

Additional observations from a re-analysis of the deposited data

Results flagged for a closer look

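Within groups of 4 to 10 libraries, 5 of 24 sets of values of the named genes had a highest library far from the rest. The rule used flags about 1 in 20 sets of normally distributed values. Whether these CPM are so distributed was not tested, so the 5 flags are a description. ENSRNOG00000012067 reached 564 CPM in 1 PS tumor, with the next at 263 and the lowest at 5.94. ENSRNOG00000015716 reached 432 CPM in 1 wildtype pad (next 161), 6740 CPM in 1 IFPS tumor (next 1520) and 2670 CPM in 1 PS tumor (next 1140). ENSRNOG00000031890 reached 29.6 CPM in 1 IFPS tumor, with the next at 15.8.

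The PS effect differed between cell types, by an interaction test in edgeR, in 1705 genes for MECs and fibroblasts and in 161 genes for MECs and adipocytes. ENSRNOG00000031890 was lower in PS MECs and higher in PS fibroblasts, a log2 difference of -1.67 (adjusted p = 0.00232). ENSRNOG00000012067 was higher in PS in both MECs and adipocytes, and more so in adipocytes, a log2 difference of -3.87 (adjusted p = 1.12e-07).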

How the results depend on the processing

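Between PS and wildtype MECs, 347 genes passed, against 847 (461 higher, 386 lower) with DESeq2 and 36 (23 higher, 13 lower) with only the 2 groups in the fit. Leaving out 1 library gave 72 to 815 genes, 45 to 486 higher and 23 to 329 lower. The count was 349 with RLE size factors and 344 without a filter. PS against IF MECs gave 6 genes with RLE size factors, 27 without a filter, 209 with DESeq2, 6 with only 2 groups, and 3 to 12 with a library left out. PS against IFPS MECs gave 16 without a filter, 130 with DESeq2, 29 with only 2 groups, and 6 to 13 with a library left out. The difference of effects between MECs and fibroblasts gave 733 with only PS and wildtype, and 893 to 2131 with a library left out. With the replicate block on the title number it gave 2022, and the block changed no call of a named gene. Between MECs and adipocytes it gave 610 with DESeq2 and 72 to 348 with a library left out. Only 2 of 12 same-numbered MEC and adipocyte libraries correlated above 0.1 (-0.07 to 0.152). Whether these libraries are paired cannot be told from that, and the replicate block gave 7 genes.

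No paired analysis was possible within MECs because PS and wildtype share no title number. A few differences near 0, none past the threshold, changed sign with a library left out: ENSRNOG00000012067 between MECs and fibroblasts (-0.22 to 0.22), and ENSRNOG00000003905 between MECs and fibroblasts (-0.05 to 0.09) and between MECs and adipocytes (-0.04 to 0.11). With DESeq2 the difference between MECs and adipocytes passed for ENSRNOG00000031890 (1.94, adjusted p = 0.0416) and ENSRNOG00000015716 (3.44, adjusted p = 0.0223). Alternatives chosen after seeing the data were leaving wildtype replicate 2 out of the fibroblast overlap (127 genes the same way) and out of the set medians (0.36 for MEC-enriched genes), and sets defined at 4-fold (0.19 and -0.28). The causes of these changes were not tested. Among genes under 4.44 CPM the median standard error was 0.312, and how much of it is depth was not tested.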
